A study of Homo sapiens with 12 samples.

Results

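The 34 genes described here act in homologous recombination and in the Fanconi anaemia pathway, and were taken by symbol from a fixed list. All 34 were found among the 58302 genes of the count table, and all 34 passed the filter on low counts, with between 57 and 9783 reads per library. RNA was sequenced from NCI-H226, a human mesothelioma cell line that lacks NF2, a brake on the transcriptional co-activators YAP and TAZ, and from NCI-H226_CL3, a resistant derivative grown in stepwise higher concentrations (0.25 to 3 µM) of a small-molecule inhibitor of TEAD, the family of DNA-binding proteins through which YAP and TAZ act. The resistant cells were incubated with the TEAD inhibitor GNE-7883 or with the vehicle DMSO, and so were the sensitive parental cells, which gave 4 groups of 3 libraries. Both lines share the NF2-null background, and CL3 is the one resistant derivative profiled, so the lines are compared as single cultures. The labels give neither the dose nor the length of the last incubation.

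Homologous recombination rebuilds a broken chromosome from an intact copy, usually the sister chromatid, and is therefore used mainly in S and G2 phases. Broken ends are trimmed to single strands by nucleases, BRCA2 and its partners prepare the strand for pairing, and RAD54 motors help it to invade the intact copy. The Fanconi pathway handles crosslinks that join both DNA strands: a core complex with the E2 enzyme UBE2T attaches ubiquitin to FANCD2 and FANCI, which then direct the cutting and the repair by recombination.

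The libraries held 31878934 to 46962645 counts, and levels are given as CPM, counts scaled to a common library size with TMM factors. A gene is said to have risen or fallen when its Benjamini-Hochberg adjusted p in edgeR's quasi-likelihood test was under 0.05 over 18035 genes. Nothing in the labels says that replicates were separate cultures, so each p-value reflects only how far these libraries spread, which may be technical. The labels call the tissue epithelial lung and the cells mesothelioma; the summed level of 8 mesothelial markers was 1367 to 1500 CPM in resistant GNE-7883, 1015 to 1128 CPM in resistant DMSO, 3482 to 3695 CPM in sensitive GNE-7883 and 2426 to 2788 CPM in sensitive DMSO libraries, while 6 alveolar and airway markers summed to at most 2.33 CPM and 5 blood markers to at most 6.15 CPM in any library. The sum of 4 endothelial markers, nearly all of it KDR, was 31.9 to 35.1 CPM in resistant GNE-7883, 22.7 to 23.9 CPM in resistant DMSO, 180.2 to 196 CPM in sensitive GNE-7883 and 49 to 63.4 CPM in sensitive DMSO libraries. The sum of 5 fibroblast markers, nearly all of it COL1A1, was 469 to 540.2 CPM in resistant GNE-7883, 351 to 445 CPM in resistant DMSO, 424 to 487 CPM in sensitive GNE-7883 and 647 to 716 CPM in sensitive DMSO libraries; PDGFRA averaged 16.6 CPM in sensitive GNE-7883 and 1.91 CPM in sensitive DMSO libraries. The part of these markers in the results was not tested. Replicate 2 of sensitive DMSO stood apart from its group. Its counts differed from those of replicates 1 and 3 by a chi-square per degree of freedom of 39.7 and 45.7, against 3.33 between that pair and 3.52 to 11.4 within the other groups.

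That library read several long repair genes low, but not all of them. RAD51D, of 10190 bases, had 23.5 CPM there, against 25.3 and 24.8 CPM in replicates 1 and 3. BRCA2 deviated by -0.88, ATM by -0.83, RAD50 by -0.62, ATR by -0.58 and BRIP1 by -0.56 on the log2 scale from the mean of the other 2 libraries, whereas the short UBE2T deviated by 0.26 and XRCC3 by 0.36. Across the 34 genes, which share that library, Spearman's rho between this deviation and the gene length behind RPKM was -0.67, and the SD of the deviations was 0.291, against 0.0739 to 0.159 in the 9 libraries of the other groups. In those 9 libraries rho ran from -0.34 (resistant DMSO replicate 1) to 0.50 (sensitive GNE-7883 replicate 1), so smaller length trends occurred elsewhere. Calls that change without this library are therefore given with and without it.

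**Figure D1:**
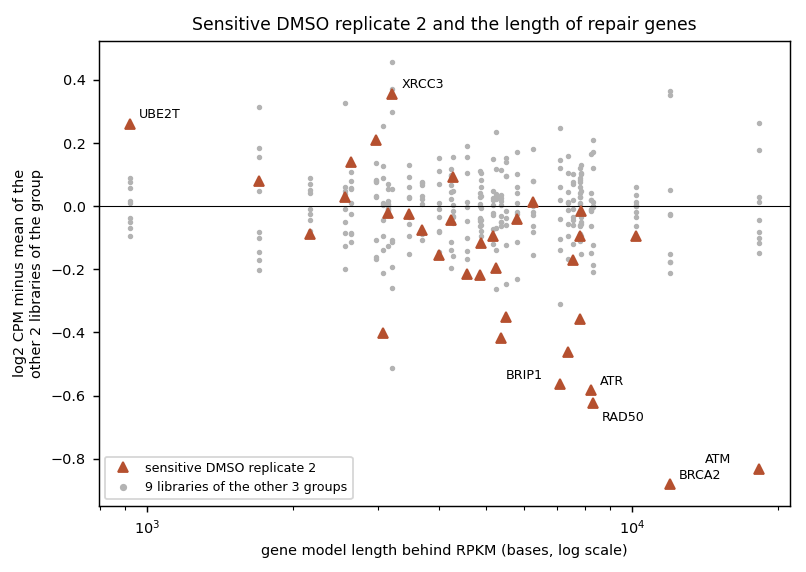
Deviation of each of the 34 genes in sensitive DMSO replicate 2 (triangles) from the mean of the other 2 libraries of its group, in log2 CPM, against gene length in bases on a log axis; grey points are the same genes in the 9 libraries of the other 3 groups. BRCA2 at -0.88 and ATM at -0.83 lie lowest, and XRCC3 at 0.36 lies highest.

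In sensitive cells, GNE-7883 lowered most of these genes. Of the 34, 26 fell, 3 rose (ATM, FANCF and RBBP8) and 5 did not pass the test (PALB2, RAD50, NBN, FANCL and ATR). Over all genes tested, 28.4% fell, 29.8% rose and 58.1% did either. The median log2 fold change was -0.60 for the 34 genes and 0.02 for all genes tested. Without sensitive DMSO replicate 2, 28 fell and 3 rose, with a median of -0.71. Replicate ranges were separate, with GNE-7883 below DMSO, for 25 of the 34 genes, against 29.8% of all genes, and with GNE-7883 above for 3, against 31.9% of all genes. In bulk RNA, fewer cells that express a gene and less RNA per cell cannot be told apart.

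In resistant cells, the same compound lowered 4 of the 34 genes (FANCE, UBE2T, RAD51AP1 and RAD54L) and raised none past the test. The share of all genes that fell there was 3.97%, the share that rose 5.25% and the share that did either 9.22%. Replicate ranges were separate with GNE-7883 below DMSO for 11 of the 34 genes, against 16.2% of all genes, and above for 2, against 14.7%. The median log2 fold change of the 34 genes was -0.09, against -0.00 for all genes; leaving out one library gave -0.11 (without resistant DMSO replicate 2) to -0.05 (without resistant GNE-7883 replicate 1, or without resistant DMSO replicate 3). The 4 calls were small and near the threshold: without sensitive DMSO replicate 2, RAD51C (edgeR adjusted p = 0.0173), BLM (0.0374) and FANCI (0.0224) fell as well, which makes 7, and RBBP8 rose, and between 0 and 2 fell when any one resistant library was left out. Leaving out any one sensitive GNE-7883 library left 1. The calls over all genes in resistant cells moved too, from 1663 of 18035 to 3060 of 18358 without replicate 2 of sensitive DMSO. They numbered 854 to 1454 without any one resistant library, and 1393 to 1452 without any one sensitive GNE-7883 library.

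**Figure D2:**
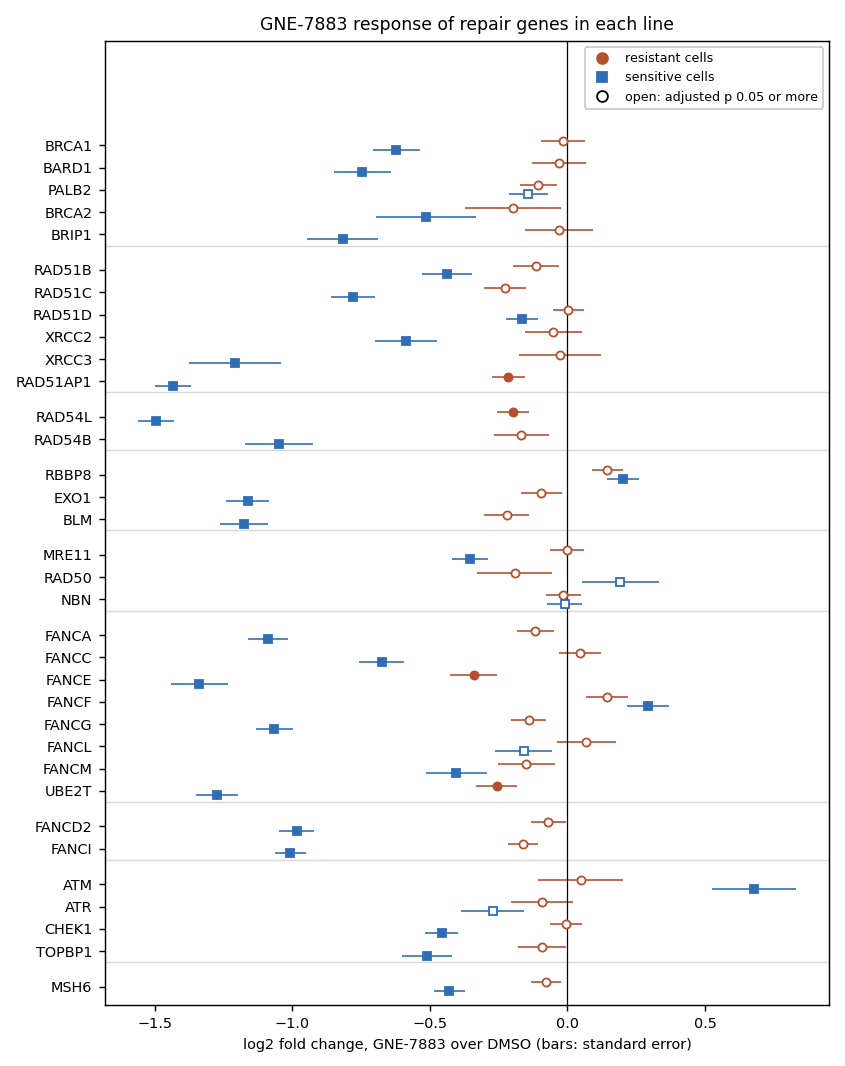
Log2 fold change of each gene, GNE-7883 over DMSO, in resistant cells (circles) and sensitive cells (squares); bars are standard errors, open symbols did not pass an adjusted p of 0.05, and grey lines separate roles. Resistant-cell values run from -0.34 (FANCE) to 0.15 (RBBP8), and sensitive-cell values from -1.49 (RAD54L) to 0.68 (ATM).

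BRCA1 and BARD1 form a ubiquitin ligase that promotes resection, PALB2 bridges BRCA1 to BRCA2, and BRIP1 is a helicase that binds BRCA1. Of these 5 genes, 4 fell in sensitive cells. BRCA1 (ENSG00000012048, chr17:43044295-43170245 of GRCh38, minus strand) had 34.4, 35.4 and 32.9 CPM in sensitive GNE-7883 libraries, against 55.9, 44.3 and 57.8 CPM in sensitive DMSO libraries. The 2 sets did not overlap, and the log2 fold change was -0.62 ± 0.08 (SE; edgeR adjusted p = 1.12e-05). In resistant cells BRCA1 had 69.4, 74.4 and 73.3 CPM with GNE-7883 and 71.1, 71.1 and 77.4 CPM with DMSO, which overlapped. BARD1 fell to 59.7% and BRIP1 to 56.8% of the sensitive DMSO mean.

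BRCA2 (ENSG00000139618, chr13:32315474-32400266, plus strand) acts at the step that prepares the trimmed strand for pairing, and its call rests on which libraries are used. It had 13.6, 10.4 and 10.7 CPM in sensitive GNE-7883, against 19.2, 10.6 and 19.9 CPM in sensitive DMSO libraries. The groups overlapped through replicate 2 of sensitive DMSO alone. The log2 fold change was -0.51 ± 0.18 (edgeR adjusted p = 0.0248), and -0.76 (edgeR adjusted p = 5.77e-06) without that library; over all alternatives the adjusted p ranged from 4.19e-08 to 0.11 and the call ended in 7 of 19, among them the fits without replicate 1 or 3 of sensitive DMSO and those without replicate 2 or 3 of sensitive GNE-7883. Resistant cells had 18, 18.6 and 18 CPM with GNE-7883, against 19.2, 19.2 and 24.5 CPM with DMSO, with a log2 fold change of -0.20 ± 0.17 that did not pass the test (edgeR adjusted p = 0.569). PALB2 had a log2 fold change of -0.11 in resistant and -0.14 in sensitive cells and passed the test in neither; without replicate 2 of sensitive DMSO, PALB2 fell in sensitive cells (-0.19, edgeR adjusted p = 0.0167), and it also passed without replicate 2 of resistant DMSO, replicate 1 of resistant GNE-7883 or replicate 3 of resistant GNE-7883 (edgeR adjusted p = 0.0407 to 0.0499).

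The related proteins RAD51B, RAD51C, RAD51D, XRCC2 and XRCC3 assist strand pairing, and RAD51AP1 stimulates strand invasion. All 6 genes fell in sensitive cells, with log2 fold changes from -1.43 (RAD51AP1) to -0.17 (RAD51D). The RAD51D call (edgeR adjusted p = 0.0222) ended without replicate 1 or 3 of sensitive DMSO and without replicate 1 or 2 of sensitive GNE-7883. RAD51AP1 (ENSG00000111247, chr12:4538798-4560048, plus strand) had 16.3, 17 and 16.2 CPM in sensitive GNE-7883, against 48.0, 42.7 and 43.1 CPM in sensitive DMSO libraries. This was 2.70-fold lower, and the groups were far apart (edgeR adjusted p = 4.45e-11). In resistant cells it had 52.6, 56.2 and 55.9 CPM with GNE-7883, against 66.4, 61.4 and 63.4 CPM with DMSO, and fell by 0.22 ± 0.06 on the log2 scale (edgeR adjusted p = 0.0373).

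XRCC3 was the other gene of this set with a large change. It had 3.06, 2.36 and 3.69 CPM in sensitive GNE-7883 and 6.2, 8.26 and 6.71 CPM in sensitive DMSO libraries, which did not overlap (log2 fold change -1.21 ± 0.17, edgeR adjusted p = 1.35e-05). Resistant cells had 8.0, 6.37 and 6.63 CPM with GNE-7883 and 6.69, 8.38 and 6.26 CPM with DMSO, which overlapped. Exons of KLC1 on the opposite strand cover 76.7% of the XRCC3 exons, and since the library kit does not mark strand, reads of the pair cannot be told apart. RAD51B had 5.90, 5.89 and 5.15 CPM in sensitive GNE-7883, against 8.18, 7.47 and 7.25 CPM in sensitive DMSO libraries, and 9.53, 10.7 and 10.3 CPM in resistant GNE-7883, against 11.3, 10.4 and 11.2 CPM in resistant DMSO libraries. Its groups were separate in sensitive and overlapped in resistant cells. RAD51C fell to 58.3% and XRCC2 to 66.4% of the sensitive DMSO mean.

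The motors RAD54L and RAD54B, which drive strand exchange, both fell in sensitive cells. RAD54L (ENSG00000085999, chr1:46247688-46278473, plus strand) had the most negative change of the 34, with 7.54, 7.52 and 7.61 CPM in sensitive GNE-7883 against 21.3, 21.1 and 21.6 CPM in sensitive DMSO libraries. Its replicates lay close together, and the level was 2.82-fold lower (log2 fold change -1.49 ± 0.07, edgeR adjusted p = 3.11e-11). In resistant cells RAD54L had 21.7, 21.9 and 21.9 CPM with GNE-7883, against 23.6, 25.7 and 25.9 CPM with DMSO, a fall of 0.20 ± 0.06 on the log2 scale at the threshold (edgeR adjusted p = 0.0499; 0.0229 to 0.304 over the alternatives). LRRC41, on the opposite strand, shares 25.1% of the RAD54L exons.

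RAD54B was far scarcer. It had 1.59, 1.84 and 1.72 CPM in sensitive GNE-7883, against 3.65, 3.21 and 3.80 CPM in sensitive DMSO libraries, with no overlap (log2 fold change -1.05 ± 0.12, edgeR adjusted p = 2.28e-06). In resistant cells the libraries had 4.49, 4.70 and 4.94 CPM with GNE-7883, against 5.75, 4.94 and 5.15 CPM with DMSO. FSBP lies on the same strand and shares 59.1% of the RAD54B exons.

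Resection is started by RBBP8 (CtIP), the partner of the MRN nuclease, and extended by EXO1, while BLM is a helicase that extends resection and dissolves joined molecules. EXO1 and BLM fell in sensitive cells and RBBP8 rose. EXO1 had 6.32, 7.01 and 6.5 CPM in sensitive GNE-7883, against 14.1, 14.6 and 15.7 CPM in sensitive DMSO libraries, a 2.24-fold lower level with separate groups (edgeR adjusted p = 4.71e-09). Resistant libraries had 12.4, 13.9 and 13.6 CPM with GNE-7883, against 14.3, 14.4 and 13.8 CPM with DMSO, which overlapped. BLM fell to 44.3% of the sensitive DMSO mean.

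RBBP8 (ENSG00000101773, chr18:22798261-23026488, plus strand) had 90.6, 97.3 and 94.4 CPM in sensitive GNE-7883, against 86.5, 79.0 and 80.1 CPM in sensitive DMSO libraries. The groups did not overlap, but the rise was small (log2 fold change 0.20 ± 0.06, edgeR adjusted p = 0.00714). In resistant cells it had 204, 219.6 and 215 CPM with GNE-7883, against 199.6, 183 and 195 CPM with DMSO, separate groups whose log2 fold change of 0.15 ± 0.06 did not pass the test (edgeR adjusted p = 0.132). It passed without replicate 2 of sensitive DMSO (edgeR adjusted p = 0.038) and when only the resistant libraries were fitted (edgeR adjusted p = 0.0485).

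MRE11, RAD50 and NBN form the MRN complex, which senses breaks and makes the first cut in the end. It was the set with the fewest calls: MRE11 fell to 78.2% of the sensitive DMSO mean (log2 fold change -0.35), and RAD50 and NBN passed the test in none of the 5 comparisons. RAD50 (chr5:132556019-132646344, plus strand) had 8.76, 7.43 and 8.14 CPM in sensitive GNE-7883, against 8.06, 5.23 and 8.05 CPM in sensitive DMSO libraries. Without replicate 2 of sensitive DMSO the log2 fold change was 0.01, against 0.19 with it. In resistant cells RAD50 had 7.98, 7.23 and 6.58 CPM with GNE-7883, against 8.29, 8.77 and 7.82 CPM with DMSO, which overlapped. An annotated same-strand gene with no counts, AC116366.3, covers 79.7% of the RAD50 exons, and reads of shared exons cannot be told apart. NBN averaged between 101 and 104 CPM in every group.

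The Fanconi core complex holds FANCA, FANCC, FANCE, FANCF, FANCG, the ubiquitin ligase FANCL and the DNA translocase FANCM, which anchors it on DNA. With UBE2T, 6 of these 8 genes fell in sensitive cells, FANCF rose and FANCL did not pass the test. FANCE (ENSG00000112039, chr6:35452356-35467103, plus strand) had 2.28, 2.21 and 2.81 CPM in sensitive GNE-7883, against 5.97, 6.26 and 6.30 CPM in sensitive DMSO libraries, 2.53-fold lower (edgeR adjusted p = 1.83e-08). In resistant cells its fall was the largest of the 34, with 6.89, 6.76 and 7.12 CPM in GNE-7883 against 8.43, 8.96 and 8.93 CPM in DMSO libraries (log2 fold change -0.34 ± 0.09, edgeR adjusted p = 0.0210). Both pairs of groups were separate.

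UBE2T had 14.6, 14.5 and 15.5 CPM in sensitive GNE-7883, against 34.3, 40.4 and 33.1 CPM in sensitive DMSO libraries, and was 2.42-fold lower (edgeR adjusted p = 1.13e-09). In resistant cells it had 30.9, 32.8 and 32.1 CPM with GNE-7883, against 39.6, 36.5 and 38.5 CPM with DMSO (log2 fold change -0.26 ± 0.07, edgeR adjusted p = 0.0382). Neither pair overlapped. FANCA fell to 47.1%, FANCG to 47.8%, FANCC to 62.6% and FANCM to 75.5% of the sensitive DMSO mean; ZNF276 on the opposite strand shares 23.6% of the FANCA exons.

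FANCF, an adaptor of the core complex, had 14.3, 16.5 and 15.4 CPM in sensitive GNE-7883 and 13, 13.1 and 11.6 CPM in sensitive DMSO libraries (log2 fold change 0.29 ± 0.08, edgeR adjusted p = 0.0038). Its resistant libraries had 14.2, 14.4 and 15.2 CPM with GNE-7883 and 13.1, 13.5 and 13 CPM with DMSO; they were separate, and the log2 fold change of 0.14 did not pass the test (edgeR adjusted p = 0.286). FANCL had 6.40, 8.01 and 6.47 CPM in sensitive GNE-7883 and 7.42, 8.04 and 7.80 CPM in sensitive DMSO libraries, which overlapped. Without replicate 2 of sensitive GNE-7883, FANCL fell past the test (log2 fold change -0.27, edgeR adjusted p = 0.0399). VRK2 on the opposite strand shares 18.7% of the FANCL exons, and GAS2 shares 11.3% of those of FANCF.

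FANCD2 and FANCI are clamped on DNA once ubiquitin has been attached, and both fell in sensitive cells. FANCD2 (ENSG00000144554, chr3:10026414-10101930, plus strand) had 33.8, 31.3 and 30.4 CPM in sensitive GNE-7883, against 64.6, 62.4 and 61.8 CPM in sensitive DMSO libraries (log2 fold change -0.98 ± 0.06, edgeR adjusted p = 2.53e-09). FANCI had 66.9, 66.1 and 67.3 CPM in sensitive GNE-7883, against 137, 128 and 138 CPM in sensitive DMSO libraries (log2 fold change -1.01 ± 0.06, edgeR adjusted p = 5.29e-10). In both genes the groups were far apart. Resistant cells had 44.9, 48.3 and 44.7 CPM of FANCD2 with GNE-7883, against 49.3, 44.9 and 50.5 CPM with DMSO, which overlapped. Their FANCI libraries had 150.4, 170.2 and 157 CPM with GNE-7883, against 180.1, 172 and 182 CPM with DMSO, separate but short of the threshold (edgeR adjusted p = 0.0882), which FANCI passed without replicate 2 of sensitive DMSO (log2 fold change -0.16, edgeR adjusted p = 0.0224).

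The kinase ATM, which signals double-strand breaks, moved the other way from most of the genes. ATM (ENSG00000149311, chr11:108222484-108369102, plus strand) had 165, 145 and 147 CPM in sensitive GNE-7883, against 111, 62.7 and 112 CPM in sensitive DMSO libraries. All 3 treated libraries lay above all 3 DMSO libraries, with a log2 fold change of 0.68 ± 0.15 (edgeR adjusted p = 0.00138). Without replicate 2 of sensitive DMSO it was 0.45 (edgeR adjusted p = 1.67e-05), a smaller rise that still passed the test. In resistant cells ATM had 94.2, 96.6 and 97.4 CPM with GNE-7883, against 87.8, 86.4 and 105 CPM with DMSO, which overlapped.

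ATR is the kinase that answers exposed single strands, TOPBP1 activates it and CHEK1 is its target kinase. CHEK1 fell to 72.8% and TOPBP1 to 70.2% of the sensitive DMSO mean. ATR had a log2 fold change of -0.27 that did not pass the test (edgeR adjusted p = 0.054), and of -0.44 without replicate 2 of sensitive DMSO (edgeR adjusted p = 2.33e-06). ATR also passed without a filter on low counts, with the replicate block and without any one resistant library (edgeR adjusted p = 0.000336 to 0.0491). The DESeq2 Wald test gave an adjusted p of 0.0482. MSH6, which recognises base mismatches, fell to 74.3% of the sensitive DMSO mean. A pseudogene shares 16.4% of the ATR exons and FBXO11 16.2% of the MSH6 exons, each on the opposite strand.

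**Figure D3:**
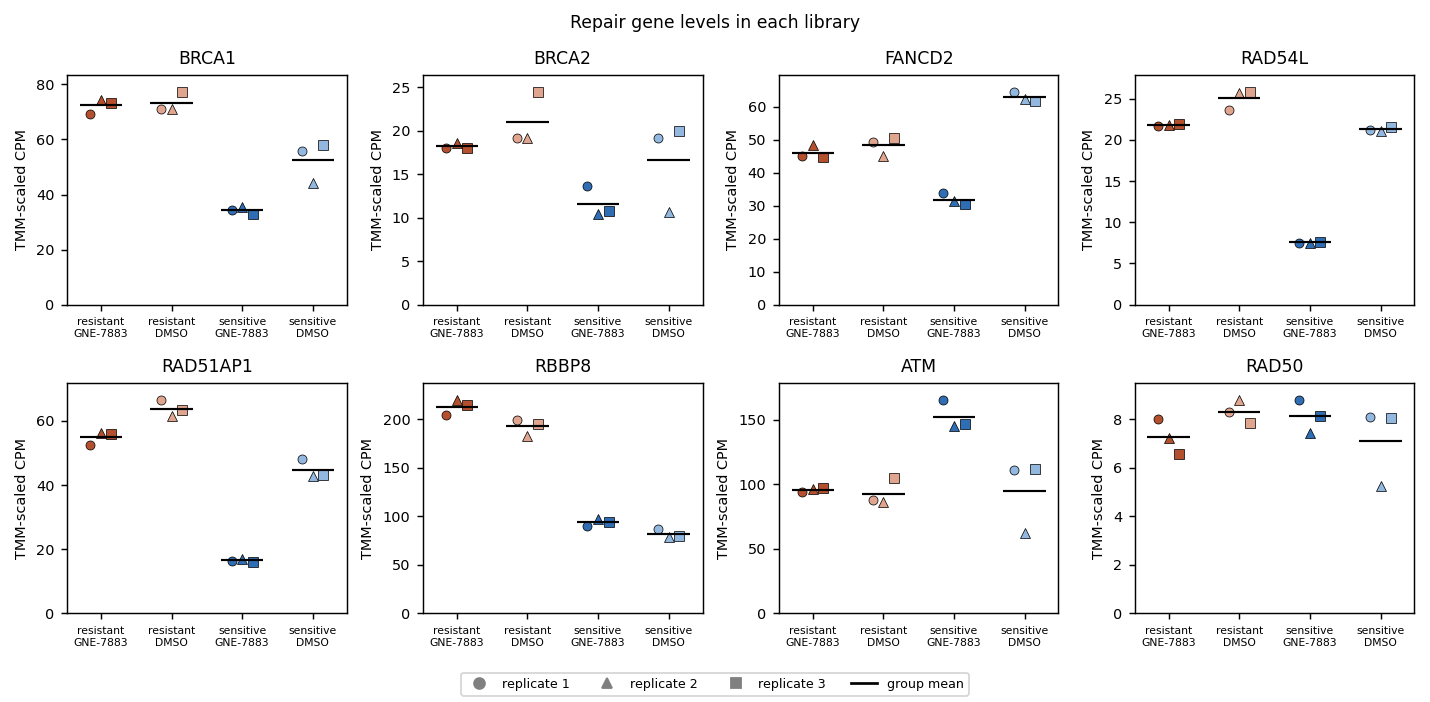
TMM-scaled CPM of 8 genes in each library of the 4 groups; circles, triangles and squares are replicates 1, 2 and 3 and horizontal lines are group means. RAD54L lies between 7.52 and 7.61 CPM in sensitive GNE-7883 libraries and at 21.1 CPM or more in the other 3 groups, RBBP8 is highest in both resistant groups, and replicate 2 of sensitive DMSO is low in BRCA2, ATM and RAD50.

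Resistant and sensitive cells were next compared within each treatment. In DMSO, 18 of the 34 genes were higher in resistant cells, 2 were lower (FANCL and FANCD2) and 14 did not pass the test; over all genes, 24.2% were higher, 24.4% lower and 48.7% either. The calls of BLM, CHEK1, FANCA, MSH6 and RAD51C, with log2 fold changes from 0.18 to 0.24, each ended in at least 1 fit that left out a library. Without replicate 2 of sensitive DMSO, BLM no longer passed (0.17, edgeR adjusted p = 0.0832) and UBE2T did (0.18, edgeR adjusted p = 0.0162; 0.09 and 0.357 with it). Ranges were separate for the same numbers, 18 above and 2 below, against 27.4% and 26.5% of all genes. The median log2 fold change, resistant over sensitive, was 0.23 for the 34 genes and -0.00 for all. With GNE-7883, 29 of the 34 were higher in resistant cells, ATM was lower, and FANCL, RAD50, FANCF and NBN did not pass the test; over all genes, 30.7% were higher, 31.1% lower and 61.9% either. Ranges were separate for 29 above and 1 below, against 34.3% and 35.2% of all genes. The median was 0.83 for the 34 genes and -0.01 for all. The comparisons with GNE-7883 against DMSO use the same libraries as these, so the counts are not separate evidence.

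RBBP8 had the largest difference in DMSO. The values given above for DMSO libraries were 183 to 199.6 CPM in resistant and 79.0 to 86.5 CPM in sensitive cells, 2.35-fold higher in resistant cells (log2 fold change 1.23 ± 0.06, edgeR adjusted p = 5.85e-11). With GNE-7883 the log2 fold change was 1.18 ± 0.06, and the difference between the 2 treatments was -0.06 ± 0.08, which did not pass the test (edgeR adjusted p = 0.633).

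RAD54B (log2 fold change 0.57), RAD51B (0.52), RAD51AP1 (0.51) and FANCE (0.51) came next in DMSO, each with separate groups. FANCL had 6.03, 5.11 and 5.74 CPM in resistant DMSO, against 7.42, 8.04 and 7.80 CPM in sensitive DMSO libraries, and was lower by a log2 fold change of -0.46 ± 0.10 (edgeR adjusted p = 0.0016). With GNE-7883 its resistant libraries had 5.62, 5.67 and 6.41 CPM, against 6.40, 8.01 and 6.47 CPM in sensitive libraries, which overlapped. FANCD2 differed in direction between the treatments: its log2 fold change was -0.38 ± 0.06 in DMSO (edgeR adjusted p = 9.58e-05) and 0.53 ± 0.06 in GNE-7883 (edgeR adjusted p = 2.37e-06). FANCD2 was thus highest in sensitive DMSO libraries and lowest in sensitive GNE-7883 libraries, with both resistant groups between them.

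With GNE-7883 the largest differences were those of RAD51AP1 (3.33-fold higher in resistant cells), RAD54L (2.89-fold), FANCE (2.83-fold), RAD54B (2.74-fold) and FANCI (2.38-fold). BRCA1 was 2.11-fold and BRCA2 1.57-fold higher. ATM was lower in resistant cells, at 63.0% of the sensitive GNE-7883 mean (log2 fold change -0.67 ± 0.15, edgeR adjusted p = 0.0014). In DMSO the log2 fold change of ATM was -0.04, which did not pass the test, but without replicate 2 of sensitive DMSO it was -0.26 (edgeR adjusted p = 0.00402), lower in resistant cells.

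**Figure D4:**
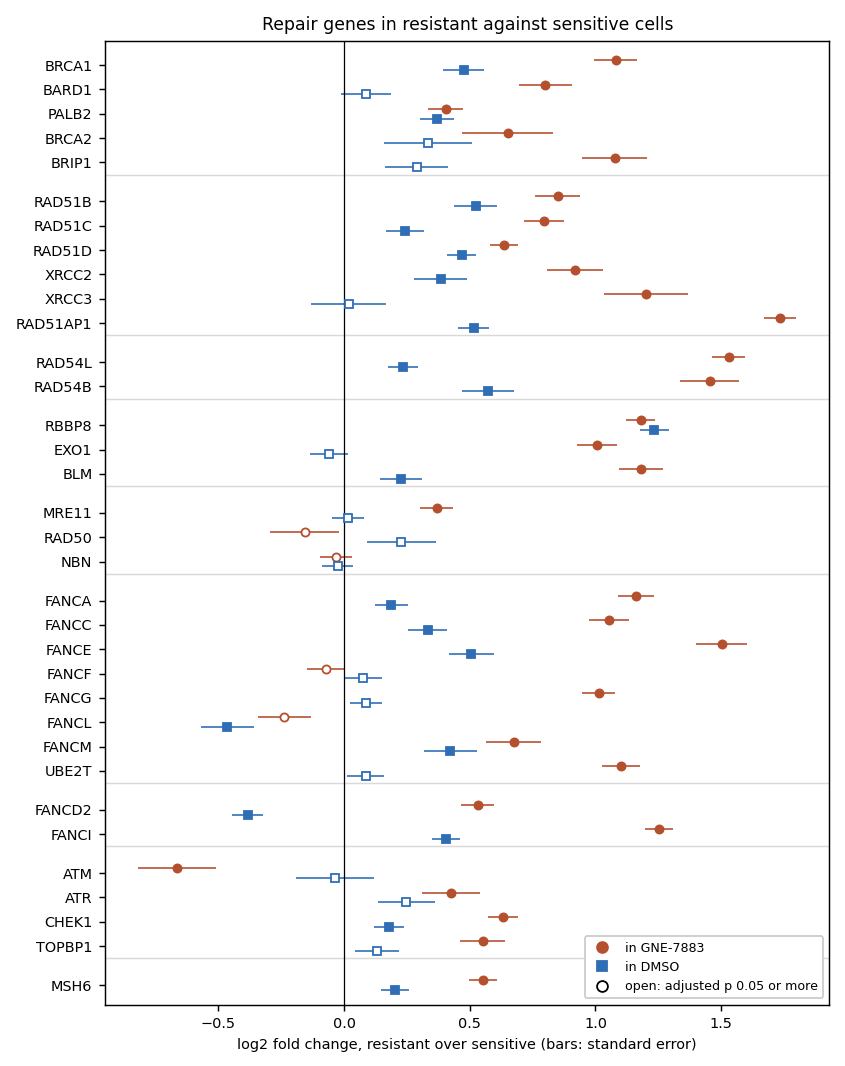
Log2 fold change of each gene, resistant over sensitive cells, in GNE-7883 (circles) and in DMSO (squares); bars are standard errors and open symbols did not pass an adjusted p of 0.05. With GNE-7883 the values run from -0.67 (ATM) to 1.73 (RAD51AP1), and in DMSO from -0.46 (FANCL) to 1.23 (RBBP8).

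The difference of the GNE-7883 responses was tested directly, as the response in resistant minus that in sensitive cells. It was positive and passed the test for 22 of the 34 genes, was negative for ATM, and did not pass for 11; 19% of all genes passed in the positive and 16.7% in the negative direction, 35.7% in all. The median difference was 0.54 for the 34 genes and -0.01 for all. RAD54L (1.30 ± 0.09), RAD51AP1 (1.22 ± 0.09), XRCC3 (1.18 ± 0.22), EXO1 (1.07 ± 0.11) and UBE2T (1.02 ± 0.11) had the largest differences on the log2 scale. That of BRCA1 was 0.61 and that of FANCD2 0.91. The value for ATM was -0.63 (edgeR adjusted p = 0.0342) and -0.39 without replicate 2 of sensitive DMSO (edgeR adjusted p = 0.0022). The call for ATM ended when any one of 7 other libraries was left out, with an adjusted p of up to 0.123. Without replicate 2 of sensitive DMSO, 27 genes passed in the positive direction, BRCA2 (0.56, edgeR adjusted p = 0.00383), ATR (0.35, edgeR adjusted p = 0.00134) and FANCM (0.40, edgeR adjusted p = 0.00614) among them.

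The calls of the 34 genes over the 5 comparisons made 14 patterns, 9 of them held by a single gene. In the commonest, of 10 genes (BLM, BRCA1, CHEK1, FANCA, FANCC, FANCI, MSH6, RAD51C, RAD54B and XRCC2), the level fell with GNE-7883 in sensitive cells and did not pass the test in resistant cells, was higher in resistant cells with either treatment, and the responses differed. Without replicate 2 of sensitive DMSO, BLM, FANCI and RAD51C leave this pattern, as given for resistant cells. In 7 more (BARD1, BRIP1, EXO1, FANCG, MRE11, TOPBP1 and XRCC3) the same held except that the lines did not differ past the test in DMSO. FANCM, RAD51B and RAD51D fell in sensitive cells and were higher in resistant cells, but the difference of their responses did not pass the test. It passed for all 3 without replicate 2 of sensitive DMSO (edgeR adjusted p = 0.00614 for FANCM, 0.0406 for RAD51B and 0.0391 for RAD51D), and for RAD51B, at 0.0518 with all libraries, in 4 other alternatives as well.

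Genes of the same and of neighbouring processes were counted from fixed lists. Of 49 other homologous recombination and Fanconi genes tested, 25 fell and 8 rose in sensitive cells, with a median log2 fold change of -0.26; none passed the test in resistant cells, where the lowest value was -0.27 and the highest 0.27. The largest fall was that of FANCB, a core complex subunit (log2 fold change -1.35, edgeR adjusted p = 7.82e-07), and the largest rise that of EME2, a partner of the nuclease MUS81 (0.82, edgeR adjusted p = 0.0134). Of 14 end joining genes, 8 fell and 2 rose in sensitive cells, with a median of -0.50. Among them POLQ, the polymerase of the microhomology route, had the largest fall (-0.89). Of 12 genes of break signalling, 6 fell and 2 rose (median -0.26); of 25 excision repair genes, 11 fell and 5 rose (median -0.13); of 6 other mismatch repair genes, 3 fell and 2 rose (median -0.13). Over all genes, 28.4% fell, 29.8% rose and 58.1% did either. The share called in either direction was 67.3% for the 49 other pathway genes, 66.7% for break signalling and 64.0% for excision repair. These lie near the 58.1% of all genes called in either direction. That share was 71.4% for end joining and 83.3% for the 6 other mismatch repair genes. In each of these lists more genes fell than rose, whereas over all genes slightly more rose than fell. In resistant cells 2 of 14 end joining genes fell, XRCC4 the most (-0.27, edgeR adjusted p = 0.0179), as did 1 of 25 excision repair genes, POLB (-0.32, edgeR adjusted p = 0.0193), and none of the break signalling or other mismatch repair genes passed the test. Over all genes, 3.97% fell and 5.25% rose in resistant cells. The share that fell was 14.3% for end joining, on only 2 genes, and 4.0% for excision repair.

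Genes that mark proliferating cells moved in the same comparison. With GNE-7883, 23 of 24 S-phase genes fell in sensitive cells and none rose, with a median log2 fold change of -1.07. All 22 G2/M genes fell, with a median of -1.22. In resistant cells 2 of the S-phase and 5 of the G2/M genes fell. Over all genes, 28.4% fell in sensitive and 3.97% in resistant cells. The median level of the 34 repair genes lay below that of the S-phase genes by a log2 difference of -0.98 in resistant GNE-7883 and -1.02 in resistant DMSO libraries, and of -0.72 in sensitive GNE-7883 and -1.12 in sensitive DMSO libraries. CPM is not scaled for gene length, so only the change of this gap between groups can be read. The gap was narrowest in sensitive GNE-7883 libraries. Mitochondrial transcripts made up 1.01% of counts in sensitive GNE-7883, against 0.556% in sensitive DMSO libraries. The part of cell cycling or RNA quality in the repair gene values was not tested.

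**Figure D5:**
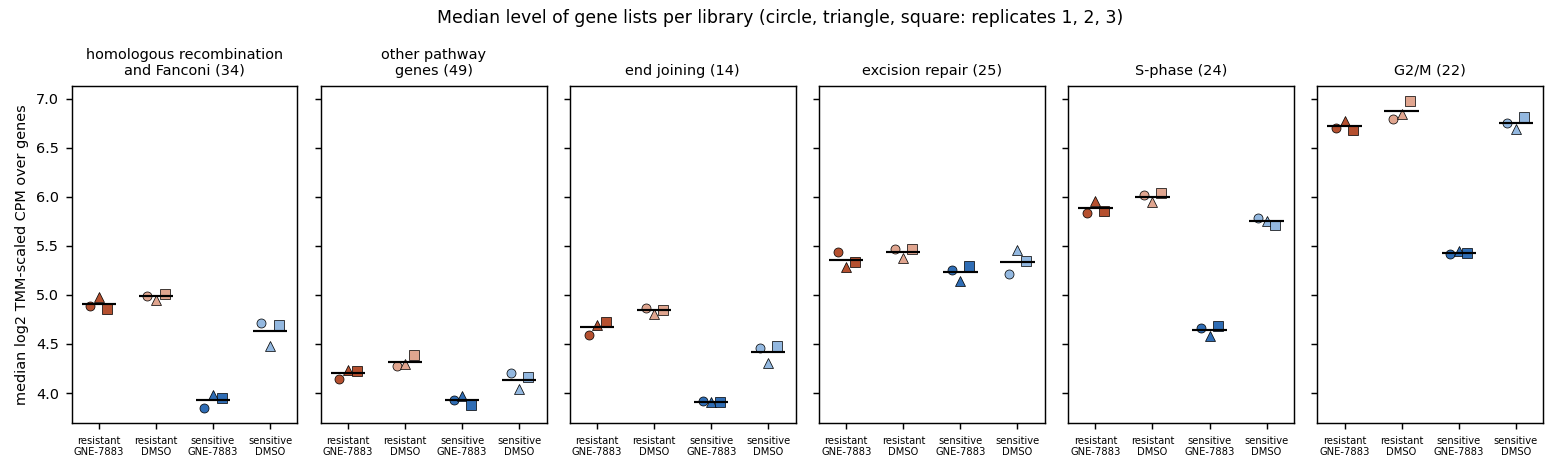
Median log2 TMM-scaled CPM over the genes of each list in every library, with group means as lines (number of genes tested in brackets). The 34 repair genes average 4.91 in resistant GNE-7883 against 4.98 in resistant DMSO libraries and 3.93 in sensitive GNE-7883 against 4.63 in sensitive DMSO libraries, and the S-phase and G2/M lists fall further in sensitive cells.

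Between genes, levels were compared per gene length as deposited RPKM. The order of the 34 ran from RAD50 (0.898 RPKM) to RBBP8 (59.2 RPKM) in resistant GNE-7883, from RAD50 (1.02 RPKM) to RBBP8 (53.5 RPKM) in resistant DMSO, from RAD54B (0.366 RPKM) to RBBP8 (24.8 RPKM) in sensitive GNE-7883, and from RAD54B (0.759 RPKM) to UBE2T (38.0 RPKM) in sensitive DMSO libraries. Of the 33 neighbouring pairs in that order, 17 had overlapping replicates in resistant GNE-7883, 19 in resistant DMSO, 16 in sensitive GNE-7883 and 22 in sensitive DMSO libraries, so the order is loose between neighbours. The lowest ranks are uncertain, since RAD50 and RAD54B share 79.7% and 59.1% of their exons with same-strand genes while RPKM divides by the full length. FANCI was among the highest, with 31.6 RPKM in resistant GNE-7883, 35.3 RPKM in resistant DMSO, 12.6 RPKM in sensitive GNE-7883 and 25.3 RPKM in sensitive DMSO. BRCA2, a long gene, averaged 1.56 RPKM in resistant GNE-7883, 1.79 RPKM in resistant DMSO, 0.940 RPKM in sensitive GNE-7883 and 1.35 RPKM in sensitive DMSO libraries.

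The promoter windows of the 3 genes that fell furthest and the 3 that rose in sensitive cells are shown because they sit at the 2 ends of the response. Each runs 250 bases before to 50 bases after the first RefSeq transcription start listed (GRCh38.p14), in lower case, with capitals for matches on either strand to 3 kinds of motif. The E2F-type motif was read as TTTCGCG or as the variants TTTGGCG and likewise TTTCCCG, the CHR motif as TTTGAA and its variant TTCGAA, and the third motif was CCAAT. Matches to the different motifs were counted separately. RAD54L, RBBP8 and ATM have 2 listed starts each.
RAD54L, chr1:46247438-46247737, plus strand: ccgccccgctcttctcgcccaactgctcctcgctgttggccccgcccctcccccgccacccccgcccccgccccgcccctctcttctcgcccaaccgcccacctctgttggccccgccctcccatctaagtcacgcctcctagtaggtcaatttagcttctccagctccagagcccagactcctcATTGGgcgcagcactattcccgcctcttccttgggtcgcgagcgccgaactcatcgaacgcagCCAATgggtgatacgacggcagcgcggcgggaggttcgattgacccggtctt
RAD51AP1, chr12:4538640-4538939, plus strand: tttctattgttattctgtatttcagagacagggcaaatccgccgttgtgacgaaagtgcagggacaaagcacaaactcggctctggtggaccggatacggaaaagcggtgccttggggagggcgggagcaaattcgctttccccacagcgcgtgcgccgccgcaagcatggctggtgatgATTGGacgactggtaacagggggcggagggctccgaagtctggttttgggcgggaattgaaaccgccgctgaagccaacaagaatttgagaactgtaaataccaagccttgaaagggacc
FANCE, chr6:35452088-35452387, plus strand: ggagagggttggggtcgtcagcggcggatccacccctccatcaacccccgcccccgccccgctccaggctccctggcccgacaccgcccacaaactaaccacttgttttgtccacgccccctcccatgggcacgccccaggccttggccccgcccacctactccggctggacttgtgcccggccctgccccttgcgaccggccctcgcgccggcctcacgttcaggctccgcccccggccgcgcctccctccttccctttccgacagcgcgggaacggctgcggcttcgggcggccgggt
RBBP8, chr18:22933078-22933377, plus strand: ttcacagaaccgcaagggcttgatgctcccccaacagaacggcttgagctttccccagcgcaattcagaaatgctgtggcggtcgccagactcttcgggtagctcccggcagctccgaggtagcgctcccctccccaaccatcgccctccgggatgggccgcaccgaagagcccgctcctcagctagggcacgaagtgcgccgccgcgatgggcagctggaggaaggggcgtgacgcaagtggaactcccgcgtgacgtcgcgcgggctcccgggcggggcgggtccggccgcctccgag
FANCF, chr11:22625774-22626073, minus strand: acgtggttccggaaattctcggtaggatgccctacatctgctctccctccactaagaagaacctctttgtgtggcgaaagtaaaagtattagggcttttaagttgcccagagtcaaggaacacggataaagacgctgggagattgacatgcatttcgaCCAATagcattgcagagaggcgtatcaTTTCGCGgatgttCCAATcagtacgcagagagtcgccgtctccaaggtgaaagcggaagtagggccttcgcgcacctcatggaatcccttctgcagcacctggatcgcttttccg
ATM, chr11:108222817-108223116, plus strand: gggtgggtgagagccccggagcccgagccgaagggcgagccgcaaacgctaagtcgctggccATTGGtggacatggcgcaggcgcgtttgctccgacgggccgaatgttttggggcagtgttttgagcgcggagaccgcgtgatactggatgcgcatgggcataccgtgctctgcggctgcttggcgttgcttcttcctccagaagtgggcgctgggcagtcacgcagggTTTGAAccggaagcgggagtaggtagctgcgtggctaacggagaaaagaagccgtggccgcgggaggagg

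Of the 34 genes, 31 had a promoter in the RefSeq table, with 45 starts in all. An E2F-type match stood in 22.2% of these windows, against 10.1% of the windows of all genes tested and 7.21% of all windows in the table. CCAAT stood in 42.2%, against 34.2% and 34.6%, and the CHR motif in 8.89%, against 12% and 16.4%. Of the windows printed, FANCF, which rose, holds an E2F-type match (TTTCGCG), and RAD54L, RAD51AP1, FANCE, RBBP8 and ATM hold none. The 10 genes with an E2F-type match had a median log2 fold change of -0.55 in sensitive cells, and the 21 without one a median of -0.62. These matches describe the letters of the windows and say nothing of binding.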

How the data were processed

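RNA was sequenced from 4 groups of 3 libraries with a TruSeq v2 kit, which does not mark strand, per the labels' protocols. The submitters' processing notes name GSNAP, GRCh38.p10 and limma, and nothing on the counting tool or annotation release was found in them. The authors deposited a table of raw read counts for each Ensembl gene. A deposited RPKM table by the authors was used here only to compare levels between genes.

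Groups were taken from the sample titles. In R 4.3.3, edgeR 4.0.16 tested the counts after TMM scaling and filterByExpr, which kept 18035 genes (two-sided quasi-likelihood test, a mean for each group, 12 libraries, 8 residual degrees of freedom), with Benjamini-Hochberg adjustment within each of 5 comparisons. The fit was tested on simulated counts. Alternatives used DESeq2 1.42.0, limma 3.58.1 (voom), other scaling and filters, a replicate block and leaving out each library. Coordinates and exon overlaps come from GENCODE release 29 on GRCh38, and promoters from RefSeq on GRCh38.p14. Libraries of 31878934 to 46962645 counts set the precision.

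All 34 genes are named; values in every library are given for up to 5 called genes with the largest change in each direction of each comparison, up to 5 with the largest difference of responses, and BRCA1, BRCA2, FANCD2, ATM and RAD50. The genes and the lists were chosen with earlier results of these data known.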

Additional observations from a re-analysis of the deposited data

Results flagged for a closer look

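The GNE-7883 response differed between the lines for 23 of the 34 genes, by edgeR's quasi-likelihood test of the difference itself (resistant minus sensitive, log2 scale, adjusted p under 0.05), and this difference is what marked them. Over all genes tested, 35.7% passed this test, 19% in the positive and 16.7% in the negative direction. With positive values, meaning a less negative or more positive response in resistant cells, the genes above 0.9 were RAD54L (1.30), RAD51AP1 (1.22), XRCC3 (1.18), EXO1 (1.07), UBE2T (1.02), FANCE (1.0), FANCA (0.97), BLM (0.95), FANCG (0.92) and FANCD2 (0.91). Values between 0.5 and 0.9 were those of RAD54B (0.88), FANCI (0.85), BRIP1 (0.79), FANCC (0.72), BARD1 (0.71), BRCA1 (0.61), RAD51C (0.55) and XRCC2 (0.53). The smallest positive ones were CHEK1 (0.45), TOPBP1 (0.42), MRE11 (0.35) and MSH6 (0.35). ATM alone was negative, at -0.63.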

How the results depend on the processing

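Every one of the 106 calls of single genes kept its direction under all alternatives run; of 1991 repeats, 1907 kept the call and 84, in 13 genes and comparisons, ended it. In sensitive cells, leaving out one library gave 24 to 28 genes that fell with GNE-7883 and a median of -0.71 to -0.54. In resistant cells it gave 0 to 7 that fell and 0 to 1 that rose; 1 fell without a filter on low counts and 1 with the replicate block, while 1 rose when the fit held only the 2 groups compared. In the lines compared in DMSO, leaving out one library gave 13 to 20 higher and 2 to 3 lower in resistant cells; with GNE-7883, 29 were higher throughout, and 2 were lower under a filter of 5 CPM in 3 libraries. For the difference of responses, 22 to 27 were positive and 0 to 1 negative, with a median of 0.51 to 0.63. The causes were not tested.

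Same-numbered libraries showed little shared deviation, with correlations of -0.119 to 0.180, against -0.159 to 0.109 between differently numbered ones. The largest, 0.180, was between replicate 2 of sensitive DMSO and replicate 2 of resistant DMSO. The numbers are not taken to pair the samples, and the replicate block is only an alternative. Depth limits the scarcest genes, RAD54B (57 reads in its lowest library), FANCE (73) and XRCC3 (78).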
